A study of Rattus norvegicus with 16 samples.

Results

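The T cell genes described here are 10 genes that mark T lymphocytes, measured by array in the lungs of 16 male Sprague-Dawley rats. They are the T cell receptor subunit genes Cd3d, Cd3e and Cd3g, the coreceptor genes Cd4 and Cd8a, the kinase gene Lck, the adaptor gene Trat1, the inhibitory receptor gene Cd5, the cytokine receptor gene Il7r and the chemokine receptor gene Ccr7. Members were chosen by gene symbol, 1 probe set each, out of 14506 genes that could be named. All 10 were measured, and no filter on low signal was applied to them.

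The study had 4 groups of 4 rats, told apart here by the sample titles. Normoxia rats breathed normal air. Hypoxia rats spent 2 weeks in a hypobaric chamber at 362 mmHg, equal to 10% oxygen at sea level. Estradiol rats had the same hypoxia and carried an osmotic pump that delivered estradiol (E2), an estrogen, at 75 µg/kg/day over 3 weeks, implanted a week ahead of the chamber. Fulvestrant rats had hypoxia, the same pump and a daily 3 mg/kg injection of fulvestrant, an antagonist of estrogen receptors. Whether the normoxia and hypoxia rats were operated on or given empty pumps is not stated. Rats weighed 250 to 300 g, and the right lung was taken once its vessels had been rinsed with saline.

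T cells recognise peptides through the T cell receptor, whose antigen-binding chains cannot signal alone and depend on the CD3 chains and the zeta chain encoded by Cd247. When the receptor binds, the kinase Lck, carried by the coreceptors CD4 or CD8, phosphorylates the CD3 and zeta tails and recruits the kinase Zap70. Outside an immune response the survival of T cells rests on interleukin 7, and their return to lymph nodes on Ccr7 and its ligands Ccl19 and Ccl21. Some markers are shared with other cells: in the rat, monocytes and macrophages also carry CD4, and natural killer (NK) cells carry CD8 alpha chains.

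The arrays correlated with each other at a Pearson r of 0.985 to 0.996 across genes, and lung markers were bright in every array: Sftpc, the surfactant protein C gene of alveolar type 2 cells, ranged from 13.83 to 13.99 on the log2 scale. The labels of normoxia replicate 4 contradict each other, with hypoxia as its treatment and normoxia in its title. The title was followed, and this array held the highest normoxia value of 8 of the 10 members. Values throughout are log2 RMA signals, in which 1 unit is a factor of 2, and signals of different probe sets are not compared. An array of whole lung cannot tell fewer T cells apart from less RNA per T cell.

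The 3 CD3 genes are neighbours on rat chromosome 8, in the order Cd3g, Cd3d, Cd3e. Sequences from 250 bases before to 50 bases after the annotated start of transcription are shown for these neighbours, which moved together, and for Il7r. Il7r was the 1 member with a limma adjusted p below 0.05 for estradiol against hypoxia, a call that single arrays decided. The windows are chr8:54183869-54184168 (minus strand) for Cd3g, chr8:54185269-54185568 (plus strand) for Cd3d, chr8:54211721-54212020 (minus strand) for Cd3e and chr2:60204868-60205167 (minus strand) for Il7r, in RefSeq's GRCr8 build, each read 5′ to 3′. Capitals mark matches on either strand to letters bound by factor families of lymphocytes: ETS (GGAAG), RUNX (TGTGGT), TCF/LEF (CTTTGA) and forkhead (TGTTTAC).
Cd3g: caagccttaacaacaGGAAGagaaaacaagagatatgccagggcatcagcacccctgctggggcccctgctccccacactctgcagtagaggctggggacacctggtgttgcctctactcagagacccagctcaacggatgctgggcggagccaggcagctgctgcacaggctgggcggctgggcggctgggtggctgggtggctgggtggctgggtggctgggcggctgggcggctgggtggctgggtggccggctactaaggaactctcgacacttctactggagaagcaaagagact
Cd3d: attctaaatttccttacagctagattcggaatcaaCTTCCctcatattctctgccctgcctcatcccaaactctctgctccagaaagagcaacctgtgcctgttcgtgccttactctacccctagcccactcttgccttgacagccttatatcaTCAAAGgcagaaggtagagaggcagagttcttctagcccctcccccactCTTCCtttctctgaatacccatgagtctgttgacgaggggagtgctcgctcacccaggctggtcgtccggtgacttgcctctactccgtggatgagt
Cd3e: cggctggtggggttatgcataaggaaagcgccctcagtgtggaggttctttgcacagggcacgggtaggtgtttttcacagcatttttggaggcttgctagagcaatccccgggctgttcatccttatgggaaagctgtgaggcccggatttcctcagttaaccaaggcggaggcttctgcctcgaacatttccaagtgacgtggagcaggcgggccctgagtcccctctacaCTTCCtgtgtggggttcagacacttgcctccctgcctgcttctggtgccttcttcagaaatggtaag
Il7r: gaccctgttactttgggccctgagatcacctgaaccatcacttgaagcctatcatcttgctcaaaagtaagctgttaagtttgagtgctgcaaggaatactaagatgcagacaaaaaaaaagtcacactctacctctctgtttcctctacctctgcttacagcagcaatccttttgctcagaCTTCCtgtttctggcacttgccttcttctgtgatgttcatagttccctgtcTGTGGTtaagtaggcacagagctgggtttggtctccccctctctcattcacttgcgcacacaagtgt

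RefSeq's table held promoter windows for 8 of the 10 members, 9 windows in all, since Lck has 2. The ETS letters were in 6 of these 8 members, against 70.1% of all 33469 windows of 300 bases, so a match is common. RUNX letters were found in 3 members (Il7r, Trat1 and the upstream window of Lck), against 17.3% of all windows. TCF/LEF letters were in 1 member, Cd3d (16.1% of all windows), and forkhead letters in 0 of 8 (3.78%). Members are counted by gene, so Lck could match in either of its 2 windows, while the shares count single windows. Matches to such short motifs describe the sequence and are not evidence of binding.

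The first question is how the T cell genes stood after chronic low oxygen. All 10 members had lower means in hypoxia, by 0.14 to 0.78 log2 units (median -0.65, against a median of 0.03 over all genes). Of the 10, 7 fell at an adjusted p below 0.05: Cd3d, Cd3e, Cd8a, Il7r, Ccr7, Trat1 and Lck. Across all genes 2.43% were called lower and 3.21% higher. The adjusted p values come from limma with Benjamini-Hochberg adjustment over all genes, and the members were picked with these results known. In 7 members the 4 normoxia and 4 hypoxia arrays did not overlap (Cd3g, not called, in place of Cd3d), which held in this direction for 5.33% of all genes.

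Cd3e, a signalling subunit of the receptor complex (probe set 10916955), read 9.66, 9.51, 9.25 and 9.90 in the normoxia arrays and 8.91, 9.04, 8.90 and 9.01 in the hypoxia arrays. Every hypoxia array was below every normoxia array, and the hypoxia values lay close together. The fall was 1.53-fold, from 9.58 ± 0.27 to 8.97 ± 0.07 (SD, n = 4; log2 difference -0.62, SE 0.13, limma adjusted p = 0.0106). Cd3d, its delta-chain partner (probe set 10909583), read 7.96, 7.74, 7.44 and 8.43 in normoxia and 7.16, 7.45, 7.07 and 7.13 in hypoxia. Normoxia replicate 3 and hypoxia replicate 2 almost coincided, so the groups touched. The difference was -0.69 (SE 0.18, limma adjusted p = 0.0372). Cd3g, the gamma chain (probe set 10916946), ranged from 9.03 to 9.75 in normoxia and from 8.48 to 8.89 in hypoxia. It differed by much the same amount, -0.60 with an SE of 0.19, and did not pass (limma adjusted p = 0.0801). Cd247, the zeta chain, which is no member, fell by 0.58 (SE 0.13, limma adjusted p = 0.0174).

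The call on Cd3d was the least steady. Leaving out normoxia replicate 1, 2 or 4 raised its adjusted p to 0.101, 0.0557 or 0.0898, and leaving out hypoxia replicate 1, 3 or 4 raised it to 0.0969, 0.0674 or 0.0837. The Trat1 call ended in the same way when normoxia replicate 1, 2 or 4 (adjusted p = 0.0857, 0.0602 and 0.0842) or hypoxia replicate 1 or 2 (0.0684 and 0.0949) was dropped. The calls on Cd3e, Cd8a, Il7r, Ccr7 and Lck held without any single array of either group. With normoxia replicate 4 counted as hypoxia, as its treatment field has it, 0 of the 10 members and 40 of all genes were called.

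Lck, the Src-family kinase that starts receptor signalling (probe set 10880033), read 9.50, 9.30, 9.05 and 9.76 in normoxia and 8.59, 8.82, 8.69 and 8.77 in hypoxia. The groups did not overlap. Its signal was 1.60-fold lower (log2 difference -0.68, SE 0.15, limma adjusted p = 0.0119). Trat1, an adaptor that associates with the receptor complex in the membrane (probe set 10750958), read 6.39, 6.27, 5.88 and 6.74 in normoxia and 5.64, 5.20, 5.76 and 5.68 in hypoxia. Its lowest normoxia array exceeded its highest hypoxia array by little. The difference was -0.75 (SE 0.19, limma adjusted p = 0.0299).

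Among the coreceptors, Cd8a fell and Cd4 did not pass, and both are carried by other cells as well as by T cells. Cd8a, the alpha chain of CD8 (probe set 10856274), read 8.89, 8.88, 8.50 and 9.01 in normoxia and 8.07, 8.21, 8.22 and 8.40 in hypoxia. These ranges were separate, and the difference was -0.59 (SE 0.12, limma adjusted p = 0.0100). Cd4 (probe set 10865585), the coreceptor of helper T cells, ranged from 10.96 to 11.39 in normoxia and from 10.80 to 11.17 in hypoxia. These ranges overlapped, and the difference was -0.14, with a 95% interval of -0.41 to 0.13 (limma adjusted p = 0.585). Cd5, which restrains receptor signalling in T cells (probe set 10728766), ranged from 8.74 to 9.45 in normoxia and from 8.49 to 8.81 in hypoxia. At -0.42 (SE 0.15, limma adjusted p = 0.112) it was not called, and it was called without normoxia replicate 3 (adjusted p = 0.0456).

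Among the receptors for survival and homing signals, Il7r had the largest difference of all members and Ccr7 the smallest p. Il7r, the alpha chain of the interleukin 7 receptor (probe set 10821851), read 9.43, 9.19, 8.84 and 9.23 in normoxia and 8.10, 8.47, 8.18 and 8.83 in hypoxia. The highest hypoxia array, replicate 4, lay just below the lowest normoxia array, replicate 3. The fall was 1.71-fold (log2 difference -0.78, SE 0.17, limma adjusted p = 0.0115). Ccr7 (probe set 10747024) read 10.19, 9.89, 9.68 and 10.24 in normoxia and 9.29, 9.47, 9.21 and 9.15 in hypoxia. All hypoxia arrays lay below all normoxia arrays. It fell 1.65-fold, from 10.00 ± 0.26 to 9.28 ± 0.14 (SD, n = 4; log2 difference -0.72, SE 0.13, limma adjusted p = 0.00314).

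Ligands of these receptors were measured too. Ccl21, a chemokine of lymphatic vessels and lymph nodes that binds Ccr7, rose 2.13-fold in hypoxia, from 11.15 ± 0.23 to 12.24 ± 0.16 (SD, n = 4; SE 0.13, limma adjusted p = 0.000133). Ccl19, the other Ccr7 ligand, stood at 8.20 ± 0.70 in normoxia and 9.08 ± 0.35 in hypoxia (SD, n = 4; limma adjusted p = 0.0583). Il7, the cytokine itself, stood at 7.28 ± 0.32 and 7.49 ± 0.34 (SD, n = 4; limma adjusted p = 0.570).

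**Figure D1:**
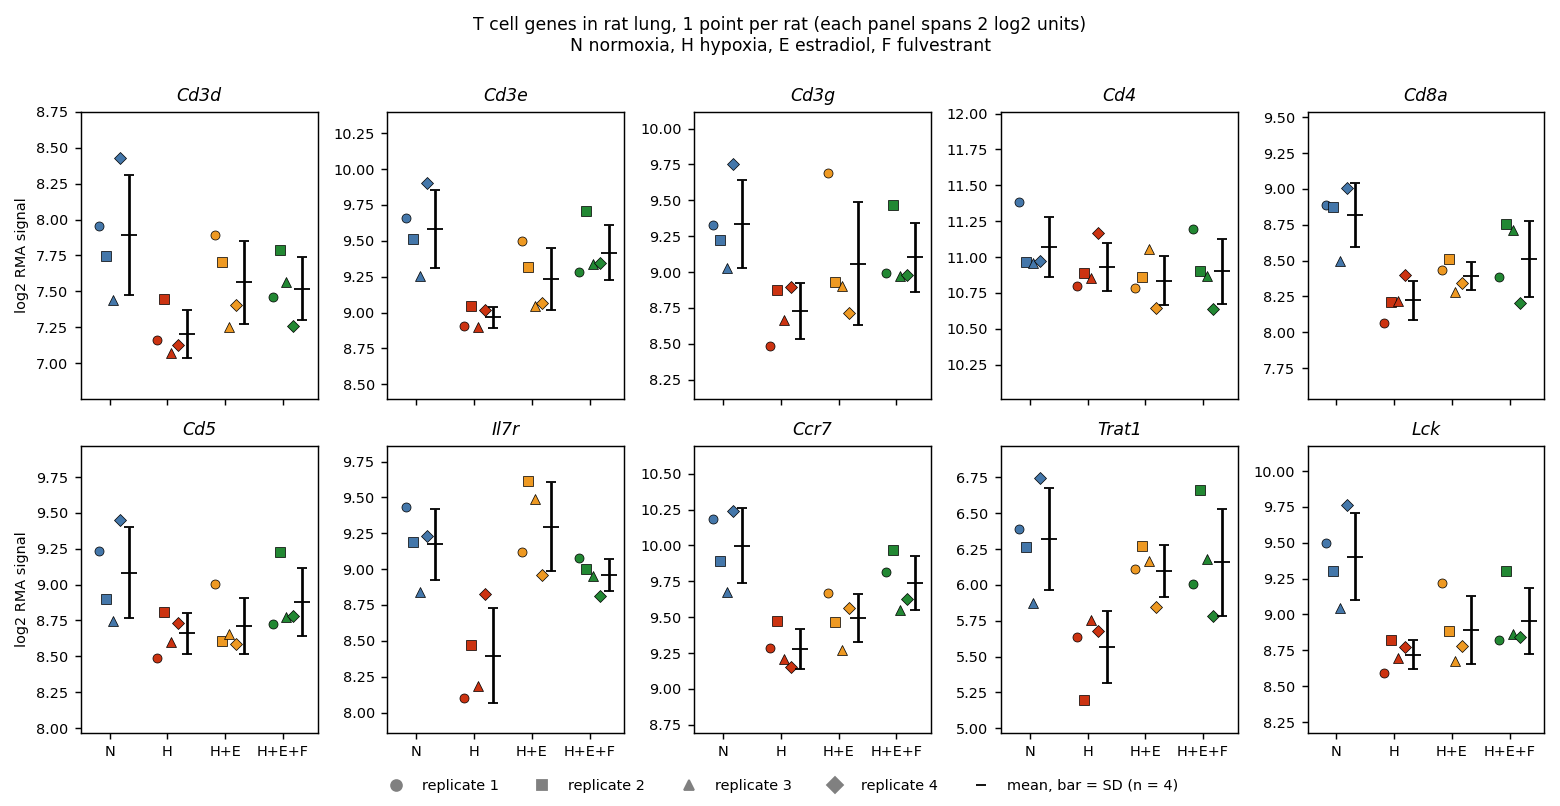
Log2 RMA signal of each T cell gene (y axis) in the 4 groups (x axis), 1 symbol per rat, with the group mean and SD (n = 4) at the right of each group. In 7 of 10 panels every hypoxia symbol lies below every normoxia symbol, Cd4 shows no such gap, and Il7r is the 1 panel in which the estradiol group has the highest mean.

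Related genes were taken from 7 lists that exclude the members. Of 17 further genes of the receptor complex and its signalling 11 fell, 0 rose and 6 did not pass (median -0.41). Those with the largest falls were Sh2d1a, an adaptor of SLAM receptors (-0.92), the Tec-family kinase gene Txk (-0.77), the adhesion adaptor gene Fyb1 (-0.77) and Rasgrp1, which activates Ras downstream of the receptor (-0.68). Of 14 negative regulators 4 fell and 0 rose (median -0.25): the phosphatase gene Ptpn22 (-0.83), the diacylglycerol kinase genes Dgka (-0.53) and Dgkz (-0.24), and Dok2 (-0.45). Of 19 genes of costimulation and adhesion 8 fell and 0 rose (median -0.36), among them the inhibitory receptor gene Btla (-1.07), Ptprcap (-0.72), the CD40 ligand gene Cd40lg (-0.70) and the costimulatory receptor gene Cd28 (-0.66).

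Of 15 transcription factor genes of T cells 5 fell and 0 rose (median -0.19), including Satb1 (-0.74), the Ikaros family genes Ikzf3 (-0.69) and Ikzf1 (-0.64), and Tcf7 (-0.44). In the list of interleukin 7 and the common gamma chain 2 of 14 genes fell, Il2rb, the beta chain shared by the receptors of interleukins 2 and 15 (-0.80), and Il15 (-0.60), and 0 rose (median -0.07). In the list of lymphocyte homing the integrin gene Itga4 (-0.46) fell, Ccl21 rose (1.09) and 9 of 11 did not pass. The Gimap genes, a family of lymphocyte GTPases, had 0 of 7 past the threshold (median -0.08). For the genes named from these lists the limma adjusted p ran from 0.000133 (Ccl21) to 0.0301 (Cd40lg).

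**Figure D2:**
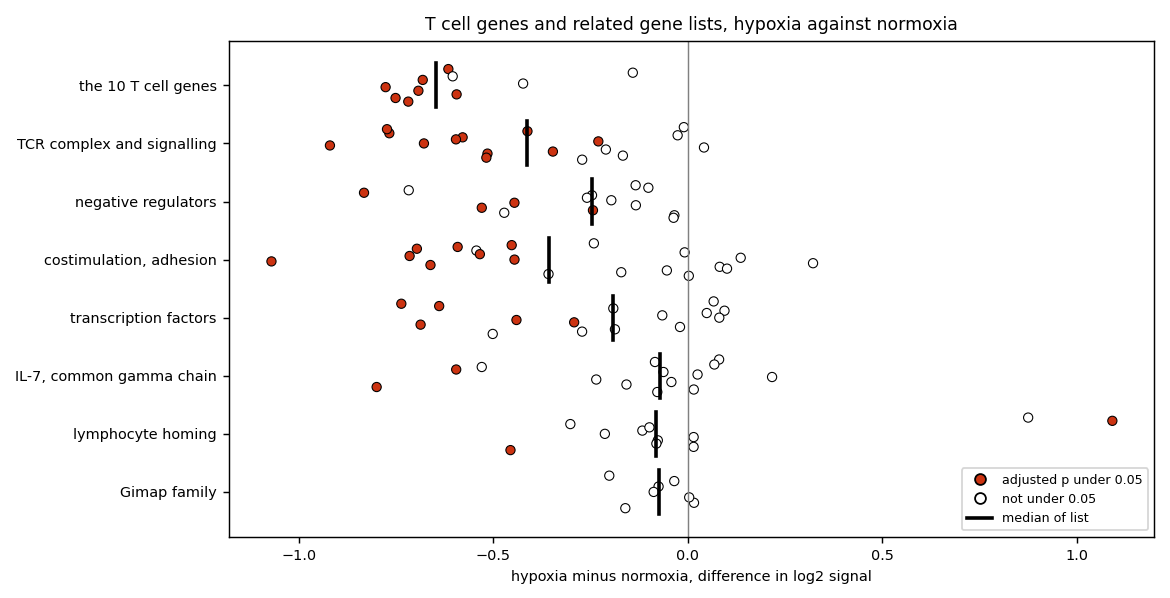
Difference in log2 signal between hypoxia and normoxia (x axis) for the 10 T cell genes and 7 lists of related genes (y axis), 1 point per gene, filled where the limma adjusted p is below 0.05. Filled points lie left of 0 except Ccl21 in the homing list at 1.09, and the list medians run from -0.65 for the T cell genes to -0.07 for the interleukin 7 list.

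Markers of other cells moved between the same groups. The lists were set by gene name, and whether their genes are confined to a single cell type was not tested. In hypoxia 12 of 14 NK cell markers and 2 of 9 B cell markers fell, while rises were found for 5 of 9 alveolar macrophage markers and for 4 of 13 in the list for monocytes and interstitial macrophages. All 9 B cell markers were below 0 (median -0.62). Of 12 neutrophil markers 0 fell and 1 rose, with 10 below 0 (median -0.56). The mean of the NK list was 8.61 to 8.99 in normoxia and 7.87 to 8.16 in hypoxia, and that of the B cell list 8.27 to 9.15 and 7.65 to 8.25. For alveolar macrophages the list mean was 8.40 to 8.72 in normoxia and 8.90 to 9.57 in hypoxia. Of 8 genes found in all leukocytes 2 fell, Coro1a (-0.52) and Ptprc (-0.45), 0 rose, 5 were below 0, and the median was -0.19. Their mean was 10.75 to 11.00 in normoxia and 10.60 to 11.03 in hypoxia, an average over both signs that includes Cd52 at 0.85 (limma adjusted p = 0.0646). With group means removed, members were correlated with the NK list over 16 arrays. The Pearson r was 0.76 for Il7r, 0.72 for Cd8a, 0.61 for Cd4 and 0.57 for Trat1. For the other members it ran from 0.03 (Ccr7) to 0.27 (Cd3d). With receptor complex and signalling, r was 0.75 for Cd8a and 0.46 for Cd4. Cd4 had 0.64 with dendritic cell markers and 0.38 with the list for monocytes and interstitial macrophages. The part of these cells in the T cell values was not tested.

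Erythroid markers, which can come from blood left in the lung or from immature red cells, averaged 7.28 to 7.63 in normoxia. In hypoxia 1 of 7 rose, 0 of 7 were below 0, and the median was 1.35. Relative to the normoxia mean the list stood at 1.81, 1.46, -0.04 and 1.61 in the hypoxia arrays. The mean of the 10 members stood at -0.71, -0.54, -0.65 and -0.49 in the same arrays. The part of blood in the T cell values was not tested.

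**Figure D3:**
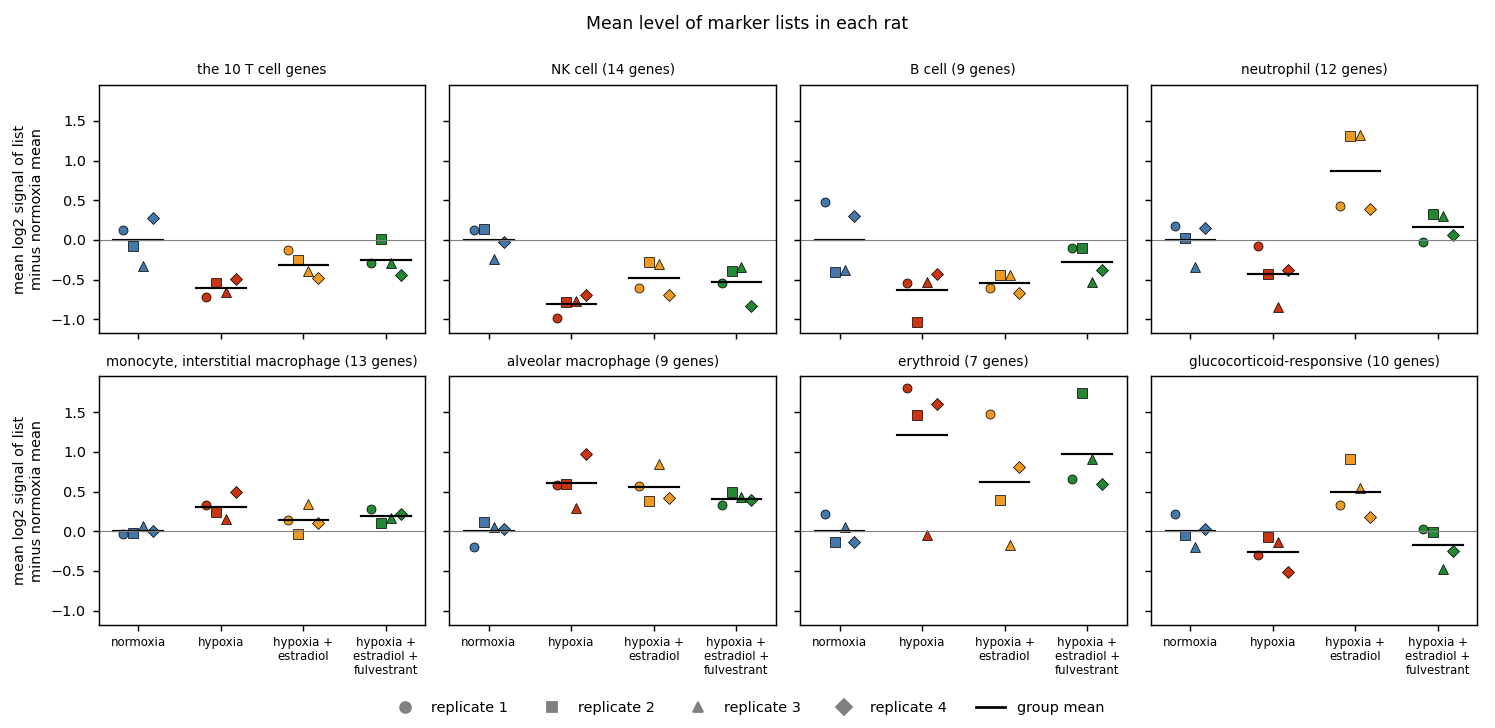
Mean log2 signal of each marker list in each rat minus the normoxia mean of that list (y axis), by group (x axis), with bars at the group means. The T cell, NK, B cell, neutrophil and glucocorticoid lists have their lowest group means in hypoxia. The neutrophil list is highest in estradiol replicates 2 and 3 (1.31 and 1.32), and the erythroid list is at -0.04 in hypoxia replicate 3.

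The next question is whether estradiol altered these genes in hypoxic rats. This comparison shares the hypoxia arrays with the comparison above, so opposite signs in the 2 are not independent. Of the 10 members 1 rose, Il7r, 0 fell and 9 did not pass (9 of 10 differences above 0, median 0.24, against -0.02 over all genes). Across all genes 0.310% were called higher and 0.462% lower, 112 in all, and this count ran from 3 (without hypoxia replicate 2) to 355 (without estradiol replicate 4) when 1 array was left out. In 3 members, Cd3e, Il7r and Trat1, every estradiol array exceeded every hypoxia array, as in 3.19% of all genes.

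Il7r read 9.12, 9.62, 9.49 and 8.96 in the estradiol arrays, against 8.10, 8.47, 8.18 and 8.83 with hypoxia alone. All 4 estradiol arrays were above all 4 hypoxia arrays, and replicates 2 and 3 were also above every normoxia array. It rose 1.86-fold, to 9.29 ± 0.31 (SD, n = 4; log2 difference 0.90, SE 0.17, limma adjusted p = 0.0362). Single arrays decided the call: dropping estradiol replicate 2 or 3 gave an adjusted p of 0.0765 or 0.0933, and dropping hypoxia replicate 1, 2 or 3 gave 0.113, 0.0645 or 0.0519. With estradiol replicates 2 and 3 both out, the difference was 0.64 (adjusted p = 0.289).

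Those 2 arrays also stood out in other lists. Relative to the normoxia mean, the 12 neutrophil markers averaged 0.43, 1.31, 1.32 and 0.39 in the 4 estradiol arrays. In the same arrays the 14 NK markers averaged -0.61, -0.28, -0.31 and -0.70, and the 7 Gimap genes -0.38, -0.47, -0.62 and -0.08. The mean of 10 genes that respond to glucocorticoids, steroid hormones that are known to raise Il7r in T cells, was 0.33, 0.91, 0.54 and 0.18. From that list 3 genes rose with estradiol, Per1, Tsc22d3 and Klf9. With group means removed, Il7r had a Pearson r over 16 arrays of 0.60 with the neutrophil list, 0.46 with the glucocorticoid list and 0.76 with the NK list. For the 7 lists of related genes the r was 0.69 with receptor complex and signalling, 0.69 with negative regulators and 0.55 with costimulation and adhesion. It was 0.50 with interleukin 7 and the common gamma chain, 0.43 with homing, 0.21 with transcription factors and -0.31 with the Gimap family. The part of neutrophils, NK cells, T cells and glucocorticoid response in the Il7r result was not tested.

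The other members differed from hypoxia by less. Trat1 read 6.11, 6.27, 6.16 and 5.84 with estradiol, above all hypoxia arrays, a difference of 0.53 (SE 0.19, limma adjusted p = 0.200). Cd3e read 9.50, 9.32, 9.05 and 9.07, its lowest value just above the highest hypoxia value, a difference of 0.26 (SE 0.13, limma adjusted p = 0.335). Cd3d differed by 0.36 and Cd3g by 0.33, with limma adjusted p values of 0.345 and 0.426. Cd3g owed its mean to replicate 1, which read 9.69 while the others lay between 8.71 and 8.93.

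Differences for Ccr7, Cd8a, Lck and Cd5 were 0.21, 0.17, 0.17 and 0.06, and that for Cd4 was -0.09. Their 95% intervals reached 0.48 for Ccr7, 0.44 for Cd8a, 0.48 for Lck and 0.37 for Cd5, so these arrays leave room for rises of up to those sizes. In the 7 lists of related genes 0 genes were called in either direction with estradiol, with medians from -0.34 (Gimap family) to 0.18 (receptor complex and signalling).

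The next comparison sets fulvestrant with estradiol against estradiol, both under hypoxia. No group had fulvestrant without estradiol, so receptor blockade and other effects of fulvestrant cannot be told apart. Of the 10 members 0 were called by limma in either direction, and 0 had an unadjusted p under 0.05, against 14.8% of all genes. Across all genes 0.0276% were called lower and 0.0207% higher, 7 genes in all, which became 331 genes without estradiol replicate 4, still with 0 members called. Differences ran from -0.33 to 0.25 (median 0.07, against 0.00 over all genes). Il7r had the lowest difference, with values of 9.08, 9.00, 8.95 and 8.81 in the fulvestrant arrays. These lay within a narrow band that overlapped the lower estradiol arrays, and the difference of -0.33 had a 95% interval of -0.69 to 0.02 (limma adjusted p = 0.375). Ccr7 had the highest difference, 0.25 with an interval of -0.02 to 0.51 (limma adjusted p = 0.393).

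For the CD3 genes the differences were -0.04 (Cd3d), 0.19 (Cd3e) and 0.04 (Cd3g), and the intervals ran from -0.43 to 0.34, from -0.09 to 0.46 and from -0.37 to 0.45. Lck differed by 0.07 (-0.25 to 0.38) and Trat1 by 0.06 (-0.34 to 0.46). Fulvestrant replicate 2 held the highest value of its group in 8 of 10 members, with Cd4 and Il7r as the exceptions. Without that array the differences of Cd3g, Trat1 and Lck changed sign, to -0.08, -0.11 and -0.05 (none called).

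**Figure D4:**
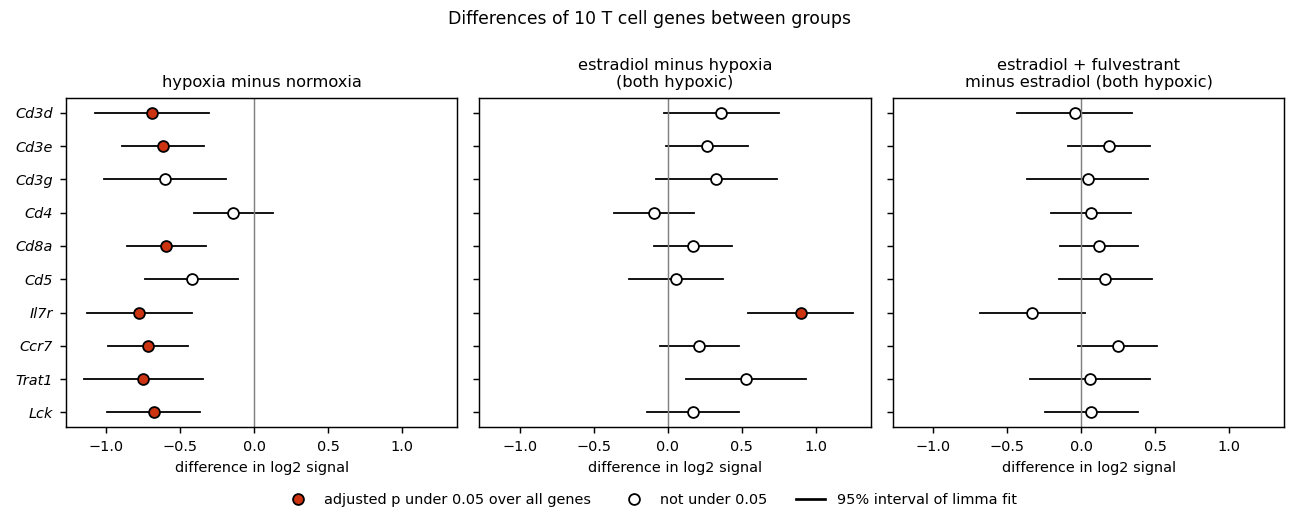
Difference in log2 signal (x axis) for each T cell gene (y axis) in the 3 main comparisons, with 95% intervals from the limma fit and filled symbols where the adjusted p over all genes is below 0.05. There are 7 filled symbols left of 0 in the first panel, 1 right of 0 in the second, Il7r at 0.90, and 0 in the third.

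The treated hypoxic rats were also compared with normoxia. With estradiol 9 of 10 members were below the normoxia mean (median -0.34) and 1 fell, Ccr7, at 9.67, 9.47, 9.27 and 9.57. Every one of those arrays was below every normoxia array, as in 4.18% of all genes, and the difference was -0.50 (SE 0.13, limma adjusted p = 0.0316). Across all genes 2.34% were called lower and 2.87% higher. Ccr7 missed the threshold when normoxia replicate 1, 2 or 4 (adjusted p = 0.103, 0.0525 and 0.0821) or estradiol replicate 2 or 3 (0.0688 and 0.095) was dropped. Lck (-0.51, limma adjusted p = 0.0568) and Cd8a (-0.42, limma adjusted p = 0.0624) narrowly missed. Both were called without normoxia replicate 3 (0.0227 and 0.0219), and Lck also without estradiol replicate 1 (0.0273). Il7r was 0.12 above normoxia (95% interval -0.23 to 0.48), and the difference was -0.14 without estradiol replicates 2 and 3.

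With fulvestrant added, all 10 members had means below normoxia (median -0.22). Limma called 0 of them, and across all genes 0.993% lower and 1.97% higher. An unadjusted limma p under 0.05 was found for 2 of the 10 members and for 15.3% of all genes. Lck was furthest below, at -0.44 (SE 0.15, limma adjusted p = 0.139). Against hypoxia alone the fulvestrant group was higher in 9 of 10 members (median 0.35), and Cd3e, Cd3g, Ccr7 and Trat1 did not overlap with hypoxia, as in 2.29% of all genes. Limma called 0 members there, although 5 had an unadjusted p under 0.05, as had 6.96% of all genes. Over all genes 0% were called higher and 0% lower in that comparison.

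Ranked by group mean, 7 members shared 1 order: normoxia, fulvestrant, estradiol, hypoxia. These were Cd3e, Cd3g, Cd8a, Cd5, Ccr7, Trat1 and Lck. Cd3d swapped the middle groups, Il7r had estradiol on top, and Cd4 had hypoxia in second place and estradiol lowest. Limma called 0 of the 30 steps between neighbouring groups in these orders. Sorting by mean makes such steps small, and normoxia and hypoxia were not neighbours in any of the 7 members called between them. Arrays did not overlap in the step from estradiol to hypoxia in Cd3e and in Trat1. Between those groups 3.19% of all genes were separate in that direction, and the share for sorted steps over all genes was not computed.

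Rat to rat, most members rose and fell together within a group. After each group mean was removed, the Pearson r over the 16 arrays was 0.98 between Cd3e and Lck, 0.96 between Cd5 and Lck, 0.92 between Cd3d and Cd3e and 0.89 between Cd3e and Cd3g. Cd4 and Il7r stood apart. The median r of Cd4 with the other 9 members was 0.11 and that of Il7r 0.32, against 0.82 for Lck and 0.78 for Cd3e. Cd4 and Il7r had an r of 0.76 with each other. These values describe arrays that share normalization and cell mixture, with 4 rats per group, and carry no test.

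**Figure D5:**
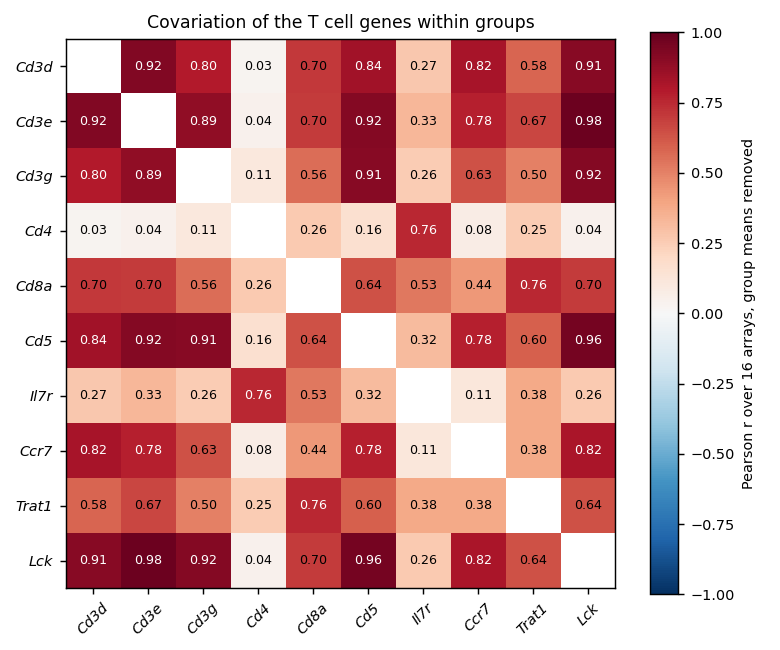
Pearson r between the log2 signals of each pair of T cell genes over 16 arrays after removal of group means, with genes on both axes and the value in each cell. Cd3e, Cd5 and Lck form the darkest block (0.92 to 0.98), and Cd4 is pale against every member except Il7r (0.76).

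Members also varied more between rats than genes at large. Over the 10 members the median SD among rats was 0.29 for normoxia, 0.15 for hypoxia, 0.21 with estradiol and 0.23 with fulvestrant, against 0.11, 0.11, 0.13 and 0.09 for the median gene. In normoxia, replicate 3 held the lowest value of all 10 members and replicate 4 the highest of 8. The mean of the members above the normoxia mean was 0.13, -0.08, -0.33 and 0.28 in the normoxia rats, -0.13, -0.25, -0.39 and -0.48 with estradiol and -0.29, 0.01, -0.29 and -0.44 with fulvestrant.

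The genes outside the members whose pattern over the 16 arrays was most like the members' mean standardised value were Cd247 (r = 0.97), the protein kinase C theta gene Prkcq (0.94), Satb1 (0.94), Ikzf1 (0.93), the adaptor gene Skap1 (0.92), Gemin2 (0.92), Tbc1d10c (0.91), Ctsw (0.90), Cd28 (0.90) and Cd27 (0.89). Of these 10 genes 7 were on the lists of related genes. With group means removed the 5 most alike were Cd247 (0.94), the olfactory receptor gene Or5k8 (0.88), Ubash3a, a negative regulator of receptor signalling (0.88), Prkcq (0.87) and Satb1 (0.84). They were picked as the highest of the genes tested, with placeholder symbols (LOC, RGD, AABR and accession-like names) skipped, and are given as a description.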

How the data were processed

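Total RNA of 16 rat lungs was measured on an Affymetrix rat gene array, 16 arrays in all, with an RNA integrity number of at least 9 per the labels. The deposited values are log2 signals that the authors made with RMA and Partek, per the submitters' processing notes, which give no version. A genome build is not given in the sources used here. Because RMA gives all arrays the same distribution, it hides a change common to most genes, and it compresses differences of dim probe sets. No depth applies to arrays, and 4 arrays per group limit the precision.

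Of 29214 probe sets 15310 had 1 gene symbol, 323 several and 13581 none in GEO's platform annotation. The probe set with the highest mean was kept per gene, which left 14506 genes, 14480 of them with a RefSeq gene ID. Each member had 1 probe set. One limma model (limma 3.58.1, R 4.3.3) with 4 group means over 16 arrays and empirical Bayes moderation gave the 6 pairs of groups. Two-sided p values were Benjamini-Hochberg adjusted over the 14506 genes and called below 0.05. The fit was also run on simulated data with known differences, in which genes varied independently, unlike the members here. That run checks the code and not the adjusted p values of genes that vary together. Samples are separate rats, and submission order gives the replicate numbers, which pair nothing. The labels name no array batch, and none was tested.

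The members, lists and tests were chosen with earlier results of these data known. All members are named, with up to 4 passing genes with the largest differences per pathway list and main comparison, and the 10 and 5 genes most like the members. Ccl19, Il7, Coro1a, Ptprc, Cd52, Per1, Tsc22d3 and Klf9 were named after their values were seen. Alternatives were median centring, repeated quantile normalization, leaving out the dimmest 25% of genes, averaging probe sets, testing all probe sets, fitting the compared groups only, a trended robust prior, array weights, leaving out each array, counting normoxia replicate 4 as hypoxia, and leaving out estradiol replicates 2 and 3.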

Additional observations from a re-analysis of the deposited data

Results flagged for a closer look

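In each of the 40 sets of 4 arrays (10 members in 4 groups), the most extreme array was compared with the nearest of the others. A gap above Dixon's 95% critical share of the whole range was found in 6 sets, where chance flags about 1 in 20. Fulvestrant replicate 2 accounted for 4 of these, standing above its group in Cd3e (9.71), Cd3g (9.46), Cd5 (9.23) and Lck (9.30), genes that vary together, so these are not independent. Estradiol replicate 1 stood above its group in Cd5 (9.00), and normoxia replicate 1 in Cd4 (11.39).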

How the results depend on the processing

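All members stayed below normoxia in hypoxia under all 18 alternatives run (17 for Trat1, too dim for the test without the dimmest genes). The count called was 5 to 8 when 1 array was left out, 6 with all probe sets tested, only the 2 groups compared, array weights or the dimmest genes left out, and 0 with normoxia replicate 4 counted as hypoxia. That relabelling moved the members' median from -0.65 to -0.34 and the calls over all genes from 817 to 40. Cd3d lost its call in 10 of 18 alternatives. With 1 array left out, calls over all genes ran from 428 to 986 for hypoxia against normoxia, from 3 to 355 for estradiol against hypoxia and from 0 to 331 for fulvestrant against estradiol. The rise with estradiol against hypoxia was 1 member, or 0 with all probe sets tested, only the 2 groups compared, array weights, normoxia replicate 4 counted as hypoxia or estradiol replicates 2 and 3 left out, and 0 to 1 when 1 array was left out. Over all genes the calls there went from 112 to 4, 5, 4, 0 and 0 under these settings. Estradiol against normoxia had 1 member called. It had 2 with median centring, repeated quantile normalization or the dimmest genes left out, 0 with all probe sets, 2 groups only, array weights, normoxia replicate 4 counted as hypoxia or estradiol replicates 2 and 3 left out, and 0 to 3 when 1 array was left out. The cause was not tested, beyond the fewer samples or more features tested that some settings bring.

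Signs that turned belonged to differences that were not called. With normoxia replicate 4 counted as hypoxia, estradiol minus hypoxia became -0.10 for Cd5 and -0.039 for Lck. Without estradiol replicates 2 and 3, fulvestrant minus estradiol became -0.10 for Cd3g and -0.043 for Lck, and estradiol minus normoxia became -0.14 for Il7r. Leaving out 1 array, estradiol minus hypoxia ran from -0.042 to 0.11 for Cd5. In the same way fulvestrant minus estradiol ran from -0.15 to 0.065 for Cd3d, -0.076 to 0.25 for Cd3g, -0.032 to 0.15 for Cd4, -0.11 to 0.18 for Trat1 and -0.047 to 0.18 for Lck, and fulvestrant minus hypoxia from -0.13 to 0.058 for Cd4. No paired analysis was possible because the labels give the groups no shared replicate numbers.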
